A study of Mus musculus with 13 samples.

Results

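The question addressed here was which transcripts of the pressure-overloaded heart differed between mice given tauroursodeoxycholic acid (TUDCA) and mice given vehicle. The comparison used 7 of the 13 hearts of the series, 4 from the TUDCA-TAC group (TT1, TT2, TT3 and TT4) and 3 from the Veh-TAC group (T3, T8 and T9), placed in their groups by the sample titles. All were whole hearts of male C57BL/6 mice of 8 to 10 weeks, taken 1 week after transverse aortic constriction (TAC). TUDCA was given by oral gavage at 300 mg/kg per day from the day of surgery, and the vehicle was water. The other 6 hearts came from sham-operated mice, 3 with vehicle (Veh-Sham) and 3 with TUDCA (TUDCA-Sham), and are given beside the banded hearts. They were also in the limma fit, so they add to the spread behind its standard errors and p-values. Each heart was measured on an array of its own, and 8336 genes with a symbol were tested, each through its brightest probe.

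In TAC a ligature around the aortic arch raises the pressure against which the left ventricle ejects. The ventricular wall thickens, fibroblasts and macrophages multiply and become active, and the muscle turns down the genes with which it burns fat. TUDCA is a taurine-conjugated bile acid that is used as a chemical chaperone. It lowers stress of the endoplasmic reticulum (ER), the compartment in which secreted and membrane proteins fold, and this stress is sensed by the membrane proteins PERK (Eif2ak3), IRE1 and ATF6. The factors ATF6 and XBP1, the latter made active by IRE1, switch on chaperones such as GRP78 (Hspa5) and GRP94 (Hsp90b1). The RNA came from whole hearts, so fewer cells of a type and less RNA per cell cannot be told apart in any value given here.

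The ER chaperones are the genes through which ATF6 and XBP1 answer unfolded protein, and they are shown by the element that these factors use. This ER stress response element, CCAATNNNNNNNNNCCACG on either strand, stood in 39 of 32851 promoters of 300 bases in RefSeq (GRCm38.p6, from 250 bases before to 50 after the start), that is in 0.119%. It stood in the promoters of 7 of the 22 measured genes of ER chaperones and folding, of which 18 had a promoter in the table. The stretches below are printed 5′ to 3′ on the strand of the gene because they mark the genes on which the ER stress readout rests, with the 2 ends of the element in capitals. A match is a description of these letters and not of binding.

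Hspa5, chr2:34772005-34772063, plus strand: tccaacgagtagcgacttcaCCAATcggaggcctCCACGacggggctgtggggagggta

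Hsp90b1, chr10:86705513-86705676, minus strand: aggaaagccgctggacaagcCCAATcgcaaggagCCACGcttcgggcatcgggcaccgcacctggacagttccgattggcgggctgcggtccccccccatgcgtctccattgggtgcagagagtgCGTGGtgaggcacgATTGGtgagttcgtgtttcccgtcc

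Pdia6, chr12:17266471-17266529, plus strand: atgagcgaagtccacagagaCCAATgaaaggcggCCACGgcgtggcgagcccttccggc

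Dnajc3, chr14:118937807-118937865, plus strand: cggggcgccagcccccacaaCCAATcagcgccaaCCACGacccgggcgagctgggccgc

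Calr, chr8:84847055-84847113, minus strand: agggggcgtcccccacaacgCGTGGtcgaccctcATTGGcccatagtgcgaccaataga

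Over all genes, 1369 of 8336 (16.4%) differed between TUDCA-TAC and Veh-TAC hearts at an adjusted p under 0.05 in limma, and such genes are called here. Of these, 681 (8.17%) were higher and 688 (8.25%) lower in the TUDCA-TAC group. More of the large differences were falls, since 53 called genes were over 2-fold higher and 131 over 2-fold lower. In 1081 genes (13%) each TUDCA-TAC heart lay above each Veh-TAC heart, and in 1103 genes (13.2%) each lay below. The median standard error of a log2 fold change was 0.16, and the median log2 fold change over all genes was 0.01. The other probes of the called genes pointed the same way in 394 of 430 cases (91.6%). The limma fit took its spread from all groups, sham hearts included, and the 7 banded arrays fitted alone gave 505 called genes.

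The arrays of the 2 groups also differed in background, and this bears on every result below. The 25th percentile of raw intensity, which measures background, was 302.7 to 309.9 on the 3 Veh-TAC arrays and 164.4 (TT1), 261.7 (TT2), 263.9 (TT3) and 270.4 (TT4) on the TUDCA-TAC arrays. The groups did not overlap (two-sided exact permutation test, p = 0.0571, the smallest that 4 hearts against 3 allow). Among the 6 sham arrays only TUDCA-Sham heart TS6 was as low, at 259.2, and the others lay between 302.8 and 314.5. With a term for background of 2 levels in the fit, a setting added after the data were seen, 0 genes were called by limma in the banded comparison and 778 had an unadjusted p under 0.05. That term rests on TS6 alone, and without it background and group cannot be told apart. All 133 called genes that the naming rule picked kept their direction with the term, and the median ratio of their log2 fold changes with and without it was 0.971. These genes were called in this same comparison and the term rests on 1 array, so this is no test of the part of background. With the background level of each array as a continuous covariate, 140 genes were called. Calls lost with this covariate included those of Col1a2, Col3a1, Ccn2, Mmp2, Retnla, Lyz2, Dlat, Hrc, Kcnh2 and Dbp. Calls kept included those of Ptn, Mdk, Sfrp2, Lox, Sparc, Acot1, Acsl6, Decr1 and Scn4b. Of the 133 called named genes 42 kept the call in all planned settings, this covariate included. TS6 was shifted from the other TUDCA-Sham hearts in the same direction as the banded difference, and by over 0.5 times its size, in 107 of the 1369 called genes (7.82%), and in the opposite direction by as much in 42 (3.07%). The TS6 shift and the banded difference had a Pearson correlation of 0.18 over the called genes and 0.11 over all genes.

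**Figure D1:**
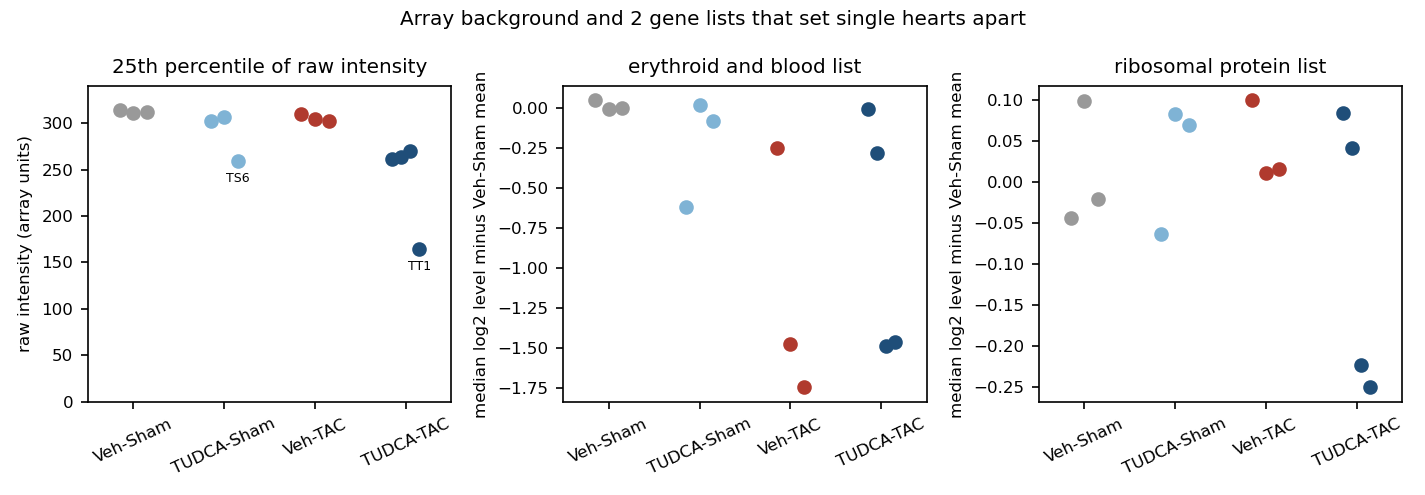
Left, 25th percentile of raw intensity of each of the 13 arrays by group. Middle and right, the median over the 7 measured erythroid and blood genes and the 49 ribosomal protein genes of the log2 level minus the Veh-Sham mean in each heart. TT1 at 164.4 and TS6 at 259.2 are labelled, T8, T9, TT1 and TT4 lie low in blood transcripts, and TT1 and TT4 lie low in ribosomal protein transcripts.

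The hearts of each group were not alike. TT1 was the TUDCA-TAC heart farthest from the Veh-TAC group in 811 of the 1369 called genes (59.2%), and TT2 and TT4 were the nearest in 36.4% and 36.7%. T8 was the Veh-TAC heart farthest from the TUDCA-TAC group in 53.1% of them. Erythroid and blood transcripts were low in T8, T9, TT1 and TT4 (median log2 level 1.46 to 1.74 below the Veh-Sham mean) and near it in T3, TT2 and TT3 (0.00 to 0.28 below), so they split both groups. Of the 7 blood genes 0 were called by limma and 2 had an unadjusted p under 0.05. Without T8 the calls fell to 417 and without T9 to 663, of which 413 and 632 were also called with all hearts. Without any other single heart the number lay between 937 (without TT1) and 1330 (without T3).

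Secreted growth factors and matrix proteins were among the largest falls. Ptn, which encodes the heparin-binding growth factor pleiotrophin, had log2 intensities of 8.51, 8.93, 8.98 and 9.52 in TT1, TT2, TT3 and TT4 and of 11.35, 11.78 and 11.73 in T3, T8 and T9. All TUDCA-TAC hearts lay below all Veh-TAC hearts and above the sham means of 8.18 (Veh-Sham) and 8.15 (TUDCA-Sham). Its log2 fold change came to -2.63 (standard error 0.22, adjusted p = 0.000273), a 6.20-fold lower level. Mdk encodes midkine, the only close relative of pleiotrophin. It had log2 intensities of 9.98, 9.88, 9.87 and 9.84 in TT1 to TT4 and of 11.51, 12.21 and 11.58 in T3, T8 and T9. The groups again did not overlap and the TUDCA-TAC hearts lay close to each other. Midkine transcripts had a log2 fold change of -1.88 (standard error 0.18, adjusted p = 0.0005), and Veh-Sham and TUDCA-Sham means were both 9.72.

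C1qtnf3, which encodes the secreted protein CTRP3 of the C1q and TNF related family, was at 7.15, 7.60, 8.13 and 8.92 on the log2 scale in TT1 to TT4. The Veh-TAC hearts were at 10.56, 10.50 and 10.51. The TUDCA-TAC hearts were thus all lower but spread over a wider range than the Veh-TAC hearts. The log2 fold change amounted to -2.57 (standard error 0.35, adjusted p = 0.00171), and a second probe gave -2.60. Sfrp2 encodes a secreted frizzled-related protein that binds Wnt ligands, and had values of 9.39, 9.63, 9.74 and 9.28 in TT1 to TT4 against 11.53, 12.70 and 11.69 in T3, T8 and T9. T8 stood highest in Sfrp2, as in Mdk. Sfrp2 had a log2 fold change of -2.46 (standard error 0.25, adjusted p = 0.00083).

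Matn4, which encodes the matrix adaptor protein matrilin-4, was lower by a log2 fold change of -2.32, and Omd, which encodes the small proteoglycan osteomodulin, by -1.65. The low-background heart TS6 stood 0.92 below the other TUDCA-Sham hearts in Omd and 0.57 above them in Matn4. Serpinb1a, which encodes an inhibitor of neutrophil elastase, had -2.21 and Nox4, which encodes an NADPH oxidase that makes hydrogen peroxide, had -1.97. Ddah1, which encodes the enzyme that breaks down an endogenous inhibitor of nitric oxide synthase, had -1.80. Dclk3, which encodes a doublecortin-like kinase, had values of 6.70 to 7.23 in the TUDCA-TAC and 8.36 to 8.91 in the Veh-TAC hearts, with a log2 fold change of -1.74 (standard error 0.15, adjusted p = 0.000273). The adjusted p-values of Matn4, Omd, Serpinb1a, Nox4 and Ddah1 lay between 0.00102 and 0.00582.

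The called genes of the structural matrix were all lower. Of 73 measured genes in 5 lists of collagens, collagen processing, matrix glycoproteins and matrix proteases, 32 (43.8%) were called lower and 0 higher, against 8.25% and 8.17% of all genes, and their median log2 fold change was -0.51. Of the 4 fibrillar collagen genes, which encode the fibres of scar, 3 were lower. Col1a2 was at 9.04, 9.74, 9.76 and 9.71 in TT1 to TT4 and at 11.10, 11.59 and 10.91 in T3, T8 and T9, with no overlap (log2 fold change -1.64, standard error 0.27, adjusted p = 0.00346). Col3a1 had -1.58 and Col5a1 -0.75, while Col1a1, which pairs with Col1a2 in type I collagen, was not called. Col1a1 had 12.32 in TT1, above T3 (11.73) and T9 (11.51), and 10.72, 11.04 and 11.62 in TT2, TT3 and TT4. The highest TUDCA-TAC value of Col1a1 thus came from the heart with the lowest value of Col1a2. Of 10 other collagens, 2 were lower (20% called, against 16.4% of all genes), Col16a1 by -1.45 and Col14a1 by -0.98. The call of Col14a1 (adjusted p = 0.0489) was lost in 17 of 28 planned settings, among them the omission of any single banded heart. The genes of basement membrane collagen IV were not called (log2 fold changes of -0.51 to 0.08 over 4 chains).

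Among 17 genes of collagen processing 6 were lower. Lox, which encodes the oxidase that crosslinks collagen and elastin, was at 10.38 to 11.20 in the TUDCA-TAC hearts and at 12.20 to 12.71 in the Veh-TAC hearts, and the sham means of 8.27 and 8.54 were lower still. Lox had a log2 fold change of -1.56 (standard error 0.24, adjusted p = 0.00257). Sparc, which encodes a collagen-binding glycoprotein, was lower by -0.96 with values of 13.61 to 13.88 against 14.53 to 14.78. The matrix glycoproteins and proteoglycans had the highest share of called members among the larger matrix lists, with 18 of 28 lower and a median of -0.66. Their called members included the elastic fibre genes Mfap2 (-1.47), Mfap4 (-1.38), Mfap5 (-1.85) and Eln (-1.13), the thrombospondin Thbs2 (-1.25), and Ccn2 (-1.25), which encodes connective tissue growth factor. Members that were not called included Dcn (-0.15), the proteoglycan of resting fibroblasts, and the laminin chains Lama2 (-0.01) and Lamc1 (-0.02). Among 14 proteases and inhibitors Mmp2 (-1.07), Mmp14 (-1.17), which encodes the membrane protease that activates MMP2, and Mmp23 (-1.13) were lower, and Mmp9 (0.22, adjusted p = 0.478) was not called.

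**Figure D2:**
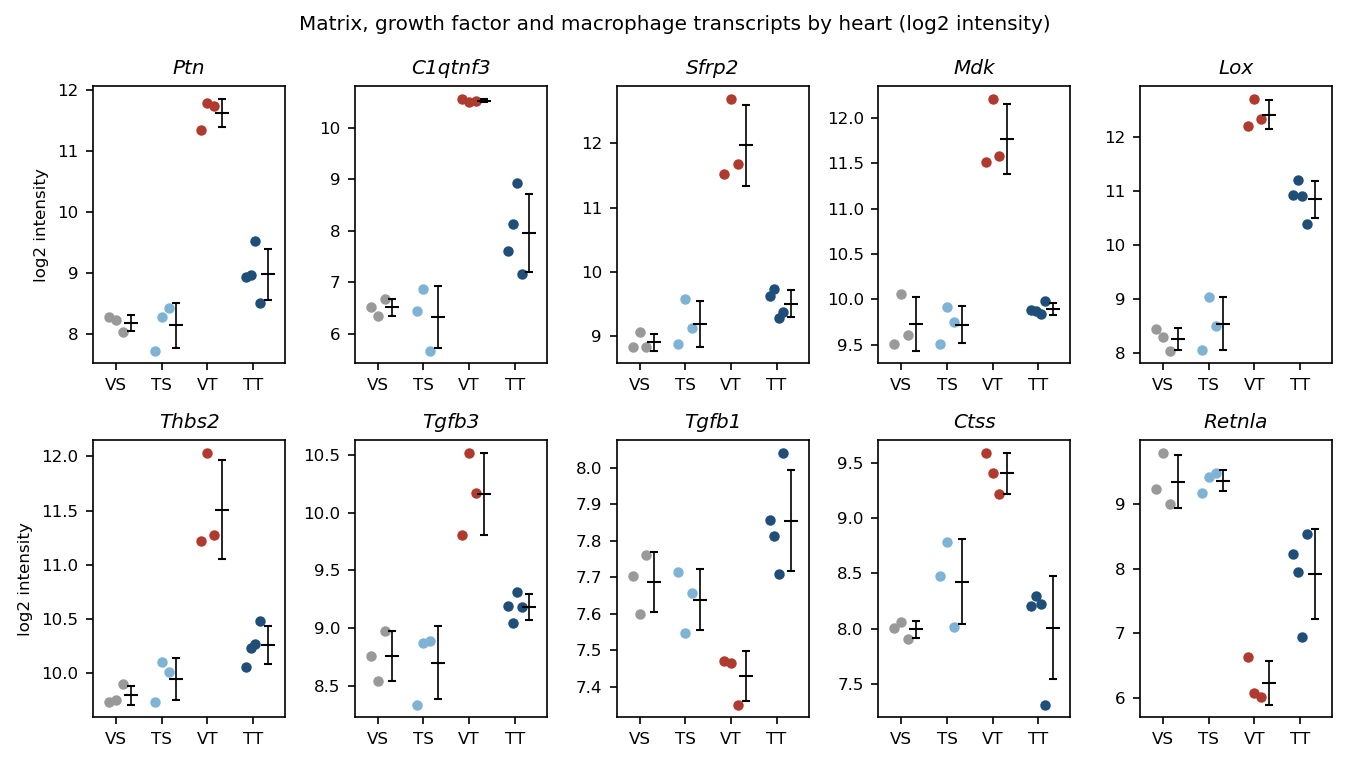
Log2 intensity of 10 transcripts in each heart (points) with the mean and SD of each group (bars), for Veh-Sham (VS, n = 3), TUDCA-Sham (TS, n = 3), Veh-TAC (VT, n = 3) and TUDCA-TAC (TT, n = 4). The vertical axes differ and do not start at 0. In all 10 genes the TUDCA-TAC and Veh-TAC hearts do not overlap, and Tgfb1 and Retnla are the ones that lie higher in TUDCA-TAC.

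The TGF-β pathway, whose ligands drive fibroblasts to make matrix through SMAD proteins, held called ligands in both directions. Of 25 measured members 8 were lower and 1 higher, with a median of -0.30. Tgfb3 was at 9.18, 9.19, 9.04 and 9.32 in TT1 to TT4 and at 9.81, 10.52 and 10.17 in T3, T8 and T9 (log2 fold change -0.98, standard error 0.18, adjusted p = 0.00582), and Tgfb2 was lower by -0.81 with groups that overlapped. Tgfb1 was higher, at 8.04, 7.86, 7.81 and 7.71 in the TUDCA-TAC hearts against 7.47, 7.47 and 7.35 in the Veh-TAC hearts. The 2 groups did not overlap, the difference was small, and both sham means (7.69 and 7.64) lay between them. Tgfb1 had a log2 fold change of 0.43 (standard error 0.10, adjusted p = 0.0144). This call was lost without T8, without T9 and in 3 other of 29 planned settings (highest adjusted p = 0.184), and that of Tgfb2 was lost in 10, among them the omission of T8, T9, TT1, TT2 or TT3. The receptor gene Tgfbr1 was lower by -0.57 and Tgfbr2 was not called (-0.30, adjusted p = 0.177). The signal transducers Smad2 (0.12) and Smad3 (0.22) were not called, while the nuclear repressor genes Tgif1 (-1.04) and Skil (-0.57), which damp SMAD signalling, were lower. Of 17 integrin and adhesion genes 4 were lower, among them the collagen receptor Itga11 (-1.67), and 2 were higher. Itgb6, which encodes a subunit of the epithelial integrin that activates latent TGF-β, was 2.44-fold higher (log2 fold change 1.29, standard error 0.17, adjusted p = 0.00154).

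Macrophage transcripts that were called were lower, with a single exception. Of 16 measured macrophage and monocyte markers 9 were lower, 1 was higher and the median was -0.66. Fcgr3, which encodes an activating antibody receptor, was at 8.72, 9.02, 8.87 and 8.85 in TT1 to TT4 and at 9.64, 9.70 and 9.71 in the Veh-TAC hearts (log2 fold change -0.82, standard error 0.12, adjusted p = 0.0024). The lysosomal protease Ctss (-1.39), the lysozyme Lyz2 (-1.22) and the pan-macrophage marker Adgre1 (-0.90) were lower too, and markers of resident macrophages were not called, namely Mrc1 (-0.11), Lyve1 (-0.20), Cd163 (-0.06) and Folr2 (0.51). Retnla, the gene of the secreted resistin-like molecule α and a marker of alternative activation, was the exception. It was at 8.54, 8.23, 7.94 and 6.94 in TT1 to TT4 and at 6.63, 6.07 and 6.01 in T3, T8 and T9, all lower than the sham means of 9.34 and 9.36. Retnla had a log2 fold change of 1.68 (standard error 0.32, adjusted p = 0.00697).

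Chemokines moved in both directions. Of 25 cytokines and chemokines 5 were lower, including the chemokine genes Ccl4 (-1.33), Ccl5 (-0.95) and Cxcl16 (-0.89). Ccl11, which encodes the eosinophil attractant eotaxin, was 2.89-fold higher, at 8.53, 8.29, 8.57 and 7.82 in TT1 to TT4 against 6.83, 6.77 and 6.72 in T3, T8 and T9. The Veh-TAC hearts were the low ones, since the sham means were 8.37 and 8.89 (log2 fold change 1.53, standard error 0.16, adjusted p = 0.000911). Il1b (-0.29) was not called, 1 of 23 interferon-stimulated genes was called (Irf8, -0.65), and of the 4 measured neutrophil markers 0 were called by limma and 1 had an unadjusted p under 0.05, with log2 fold changes from -0.62 to 0.22.

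Other cell type markers were read in the same way, and their part in the differences above was not tested. Of 14 fibroblast markers 8 were lower and 1 higher, with a median of -0.54. Several of them are matrix genes already counted, and the marker of all cardiac fibroblasts Pdgfra was not called (-0.15) while Tcf21 was lower by -0.53. The median level of this list above the Veh-Sham mean was 0.85 to 1.30 in the Veh-TAC and 0.16 to 0.73 in the TUDCA-TAC hearts. For the macrophage list these ranges were 0.70 to 0.83 and -0.04 to 0.21. Of the 13 cardiomyocyte markers 6 were near the upper limit of the array on all 7 arrays and could show no difference, and the other 7 had a median of 0.35 with 1 called (Ckm, 0.79). Ckm and Mylpf (1.31) were also the 2 called genes among 4 skeletal muscle and thymus markers. The 16 endothelial markers had a median of 0.05 with 0 called by limma. Of the endothelial markers 5 had an unadjusted p under 0.05, namely Ly6c1 (-0.40), Plvap (-0.58), Emcn (-0.32), Egfl7 (-0.45) and Rgcc (-0.27), while the pan-endothelial Pecam1 had 0.07. Of 14 smooth muscle and pericyte markers 4 were higher, including Myh11 (1.19), the myosin of contractile smooth muscle, and 1 was lower, Des (-0.78). Acta2 (0.25) and Tagln (-0.02) were not called. The call of Myh11 was lost in 6 of 29 planned settings, among them the omission of T3, T8 or T9 (highest adjusted p in limma 0.300). Adipocyte genes were uneven across hearts, with Adipoq at 10.04 and 10.29 in TT1 and TT3, 8.98 and 8.58 in TT2 and TT4, and 8.01 to 8.34 in the Veh-TAC hearts (not called, adjusted p = 0.152).

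**Figure D3:**
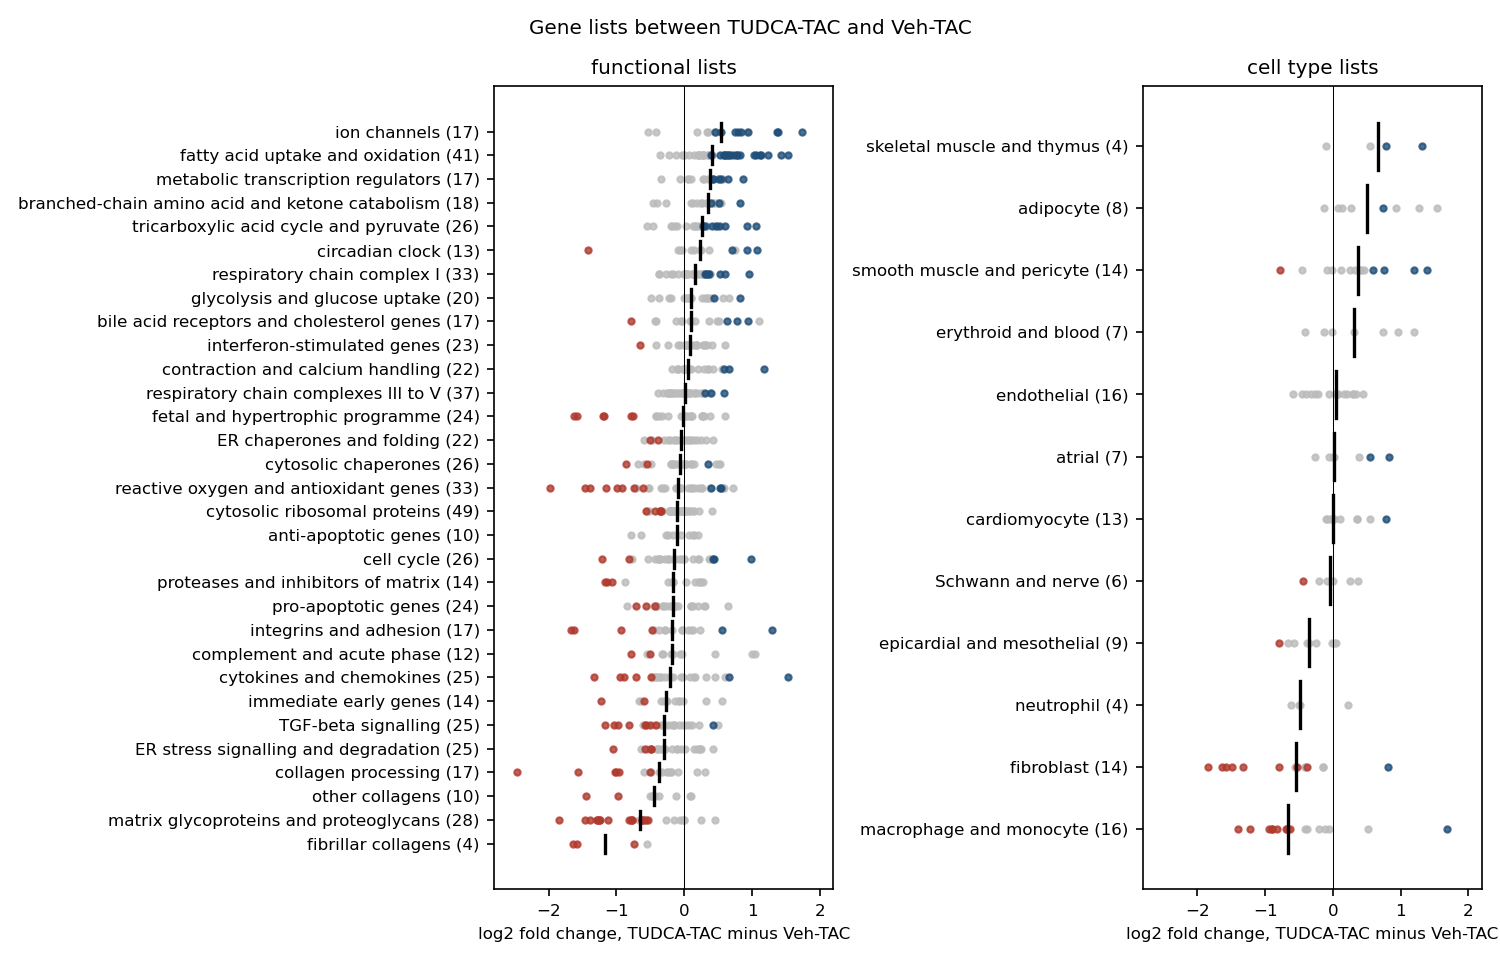
Log2 fold change, TUDCA-TAC minus Veh-TAC, of each measured member (points) of the functional and cell type lists with at least 4 measured genes, whose number stands in brackets. Blue points are called higher, red points called lower, grey points not called, and the black bar is the median. Lists run from fibrillar collagens at -1.16 to ion channels at 0.54 on the left, and from macrophages at -0.66 to skeletal muscle and thymus at 0.67 on the right.

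Genes of energy metabolism were among the higher transcripts. The adult heart makes most of its ATP from fatty acids, which are bound to coenzyme A, carried into mitochondria and oxidized to feed the tricarboxylic acid cycle. Of 135 measured genes in 5 lists of fatty acid oxidation, metabolic regulators, the tricarboxylic acid cycle, respiratory complex I and branched-chain amino acid catabolism, 43 (31.9%) were called higher and 0 lower, against 8.17% and 8.25% of all genes, and the median log2 fold change was 0.29. These 5 lists were put together after their values were seen, and the respiratory complexes III to V and glycolysis are given apart. The fatty acid list held 19 of 41 members higher with a median of 0.41. Acot1, which encodes a thioesterase that frees fatty acids from coenzyme A, was at 11.62, 12.01, 11.87 and 11.60 in TT1 to TT4 and at 10.84, 10.01 and 10.20 in T3, T8 and T9. The groups did not overlap and neither reached the sham means of 12.47 and 12.57. Acot1 had a log2 fold change of 1.43 (standard error 0.20, adjusted p = 0.00194), and a second probe gave 1.31. Because Acot1 and Acot2 are near-identical neighbours, their probes may share signal. Acsl6, which encodes a ligase that activates long-chain fatty acids, was at 9.29 to 9.49 in the TUDCA-TAC and at 8.11 to 8.74 in the Veh-TAC hearts (log2 fold change 1.06, standard error 0.14, adjusted p = 0.00154). Decr1, which encodes a reductase needed for unsaturated fatty acids, was higher by 0.82 with values of 11.90 to 12.19 against 10.97 to 11.43.

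Within the fatty acid list the enzymes of entry into mitochondria were among the higher genes, with Cpt1b at 0.39, Cpt2 at 1.03 and the carrier Slc25a20 at 0.61. The trifunctional protein gene Hadhb was not called (-0.03). The lipase gene Lpl and the fatty acid binding protein gene Fabp3 were near the upper limit of the array on all 7 arrays and have no usable fold. Pdk4, which encodes the kinase that shuts off pyruvate oxidation and responds to fatty acids and fasting, was not called (-0.36, adjusted p = 0.549). Ces1d, which encodes a lipid droplet carboxylesterase, was 3.09-fold higher, at 13.70, 13.49, 13.72 and 13.23 in TT1 to TT4 and at 12.54, 11.73 and 11.45 in T3, T8 and T9 (log2 fold change 1.63, standard error 0.21, adjusted p = 0.00153). T3 was the Veh-TAC heart nearest to the TUDCA-TAC group in Acot1, Acsl6, Decr1 and Ces1d.

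In the list of the tricarboxylic acid cycle with pyruvate oxidation 8 of 26 were higher. Idh3a, which encodes a catalytic subunit of isocitrate dehydrogenase, was at 13.99 to 14.17 in the TUDCA-TAC and 13.38 to 13.63 in the Veh-TAC hearts (log2 fold change 0.60, standard error 0.10, adjusted p = 0.00346), and Dlat, which encodes a subunit of pyruvate dehydrogenase, was higher by 0.93 with the highest value in TT1. Of 33 genes of complex I 7 were higher, with a median of 0.16, and of 37 genes of complexes III to V 3 were higher (8.11%, about the share of all genes), with a median of 0.01. In the latter list 8 genes were near the upper limit of the array on all 7 arrays. Ndufb11, a complex I gene, was not detected on any Veh-TAC array and was at least 1.52-fold higher. Among 17 regulators 6 were higher, including the coactivator Ppargc1b (0.86), the mitochondrial transcription factor Tfb2m (0.51) and the retinoid receptor Rxrg (0.65). The related coactivator Ppargc1a (-0.35) was not called. The glucose transporter of muscle, Slc2a4, was higher by 0.82 (adjusted p = 0.00985), and 2 of 20 glycolysis genes were called in all (10%).

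Ion channel transcripts had the highest median of the functional lists, 0.54, with 9 of 17 members higher and 0 lower. Scn4b, which encodes a β subunit of the cardiac sodium channel, was at 10.31, 9.60, 9.77 and 9.38 in TT1 to TT4 and at 8.62, 7.79 and 7.68 in T3, T8 and T9. The TUDCA-TAC hearts lay near the sham means of 9.92 and 10.15 (log2 fold change 1.74, standard error 0.23, adjusted p = 0.00154). Potassium channel genes with a higher level included Kcnj3 (0.83), which encodes a subunit of the acetylcholine-gated channel, Kcnh2 (0.80), which encodes the rapid delayed rectifier, Kcnd2 (0.94), which encodes a transient outward channel, and Abcc9 (1.38), which encodes the sulfonylurea receptor of the ATP-sensitive channel. The values of Abcc9 were 12.31 in TT1, 10.72 to 11.21 in the other TUDCA-TAC hearts and 9.80 to 10.12 in the Veh-TAC hearts, and its other probes gave 0.30 and 0.75. Kcna5 (-0.41) and Kcne1 (-0.54) were not called. Kcnj3 and Gja5 (0.54) are also atrial markers, and the atrial markers Myl7 (0.38), Sln (0.01), Myl4 (-0.05) and Dkk3 (-0.26) were not called. Abcc9 is also a smooth muscle and pericyte marker. The part of tissue content in the channel values was not tested. Of 22 genes of contraction and calcium handling 3 were higher and 0 lower, a share of 13.6% against 16.4% of all genes called. Hrc, which encodes the calcium-binding protein of the sarcoplasmic reticulum, was at 14.31 to 15.17 against 13.31 to 13.72 (log2 fold change 1.17, standard error 0.20, adjusted p = 0.00371). Pln and Ryr2 were not called, with log2 fold changes of -0.09 and 0.55, and Atp2a2, the gene of the calcium pump SERCA2, was near the upper limit of the array on all 7 arrays and has no usable fold.

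Ppp1r1b, which encodes the protein phosphatase inhibitor DARPP-32, had the largest rise, 4.01-fold, with values of 8.99, 8.80, 9.35 and 8.57 in TT1 to TT4 against 7.99, 6.31 and 6.46 in T3, T8 and T9 (log2 fold change 2.00, standard error 0.33, adjusted p = 0.00346). T3 lay above T8 and T9 and below each TUDCA-TAC heart. Acin1, which encodes a protein of RNA splicing and chromatin condensation, came second with a log2 fold change of 1.96. In Acin1 the TUDCA-Sham heart with low array background, TS6, stood 1.56 above the other TUDCA-Sham hearts, so that this gene was high on all 5 arrays of low background. Ppl, which encodes the desmosomal protein periplakin, and Acsm5, a medium-chain acyl-CoA synthetase gene, were not detected on any Veh-TAC array and were at least 2.68-fold and 1.59-fold higher. In all 24 genes were not detected on any Veh-TAC array and 0 on any TUDCA-TAC array. Detection is set against the background of each array, which was higher in the Veh-TAC group. These bounds, and those of Ndufb11 and Srrm4, cannot be told apart from that background. A second and dimmer probe of Ppl went the other way (log2 fold change -0.45), and the call of Ppl was lost with the mean of its probes.

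**Figure D4:**
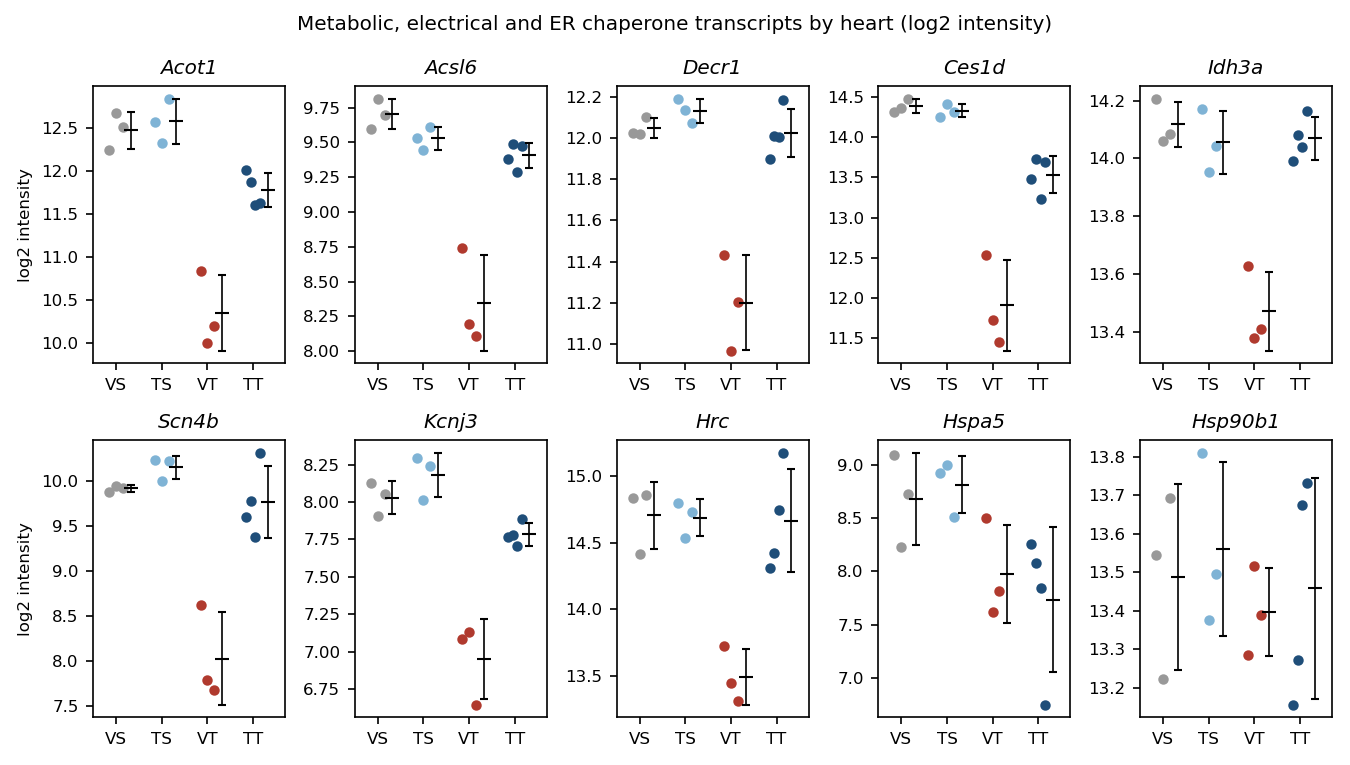
Log2 intensity of 10 transcripts in each heart (points) with the mean and SD of each group (bars), for Veh-Sham (VS, n = 3), TUDCA-Sham (TS, n = 3), Veh-TAC (VT, n = 3) and TUDCA-TAC (TT, n = 4). The vertical axes differ and do not start at 0. Acot1, Acsl6, Decr1, Ces1d, Idh3a, Scn4b, Kcnj3 and Hrc do not overlap between TUDCA-TAC and Veh-TAC, and Hspa5 and Hsp90b1 do.

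The hypertrophic programme, the fetal and load-induced genes of heart muscle, differed in part. Of 24 measured genes 6 were lower and 0 higher, with a median of -0.02. Rcan1, which encodes a calcineurin regulator whose level follows calcineurin activity, was at 12.22, 12.92, 12.75 and 13.05 in TT1 to TT4 and at 13.64, 14.11 and 14.00 in T3, T8 and T9 (log2 fold change -1.18, standard error 0.18, adjusted p = 0.00261), and a second probe gave -2.02. The 2 groups did not overlap, and the TUDCA-TAC hearts spanned a range that held both sham means, 12.33 and 12.25. Uchl1 (-1.62), Fhl1 (-0.75), Des (-0.78) and Myh7 (-1.58), the slow myosin of the fetal ventricle, were lower, and for Myh7 the groups overlapped because TT4 (8.46) lay above T3 (7.90). The natriuretic peptide gene Nppa was above 90% of the highest intensity of the array on all 7 arrays, so it has no usable fold. Acta1, the gene of skeletal α-actin, was above that limit on all 3 Veh-TAC and 3 of the 4 TUDCA-TAC arrays, and Nppb, the gene of the B-type natriuretic peptide, on all 3 Veh-TAC arrays, which understates any difference. Both were low in TT1 alone, where Acta1 was at 14.45 and the other 6 banded hearts at 15.99 to 16.08, and where Nppb was at 14.67 and the others at 15.86 to 16.09. Neither was called (adjusted p = 0.438 and 0.402).

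Of the 22 ER chaperone and folding genes, some of whose promoter elements are printed above, 2 were lower and 0 higher, a share of 9.09% that is near the 8.25% of all genes called lower. Hspa5 was at 6.75, 8.26, 8.08 and 7.85 in TT1 to TT4 and at 8.50, 7.62 and 7.81 in T3, T8 and T9, so the groups overlapped, with T3 highest and TT1 lowest of the 7 (log2 fold change -0.24, 95% interval -0.98 to 0.49, adjusted p = 0.669). Hsp90b1 was at 13.73, 13.16, 13.27 and 13.68 against 13.29, 13.52 and 13.39, again with overlap (log2 fold change 0.06, 95% interval -0.31 to 0.43, adjusted p = 0.845). These intervals leave room for a change of up to 0.98 on the log2 scale in Hspa5 and 0.43 in Hsp90b1. The Hspa5 values all lay below the median log2 level of the tested genes, 9.25, and those of Hsp90b1 above it. The 7 chaperone genes with the element had log2 fold changes from -0.24 to 0.43, the highest in Calr (calreticulin, adjusted p = 0.103), and 0 of the 7 were called by limma (1 at an unadjusted p under 0.05, Calr). Of the 2 called genes neither was among those with the element. P4hb encodes protein disulfide isomerase, which is also the β subunit of collagen prolyl hydroxylase, and was lower by -0.50 (adjusted p = 0.0124). Txndc5 encodes another disulfide isomerase and was lower by -0.39 (adjusted p = 0.0231).

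Of 25 measured genes of ER stress signalling and degradation 4 were lower and 0 higher, with a median of -0.30. Of the 25 genes, 10 had an unadjusted limma p under 0.05 in either direction, against 31.2% of all genes. The called share of 16% was near the 16.4% of all genes called in either direction, while 8.25% of all genes were called lower. The PERK gene Eif2ak3 was not called (-0.37, adjusted p = 0.389), nor was Ddit3, which encodes the pro-apoptotic factor CHOP (-0.41, adjusted p = 0.258). Ddit3 was at 8.96, 8.15, 8.44 and 9.24 in TT1 to TT4 and at 8.78, 9.11 and 9.42 in T3, T8 and T9, with TT2 and TT3 below and TT1 and TT4 among the Veh-TAC hearts. Atf4 (-0.55, adjusted p = 0.0957), Atf3 (-0.64) and Ppp1r15a (-0.51), factors downstream of PERK, had negative log2 fold changes and were not called. Nupr1, a stress-induced chromatin protein gene, was lower, at 9.80 to 10.29 against 10.72 to 11.43 (log2 fold change -1.05, standard error 0.19, adjusted p = 0.00575). Xbp1 was not called (-0.11), and Eif2s1 was not among the measured genes.

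Of 24 pro-apoptotic genes 3 were lower and 0 higher, a share of 12.5% against 16.4% of all genes called. The clearest was Bbc3, which encodes the BH3-only protein PUMA, at 7.60 to 8.08 against 8.45 to 8.56 (log2 fold change -0.71, standard error 0.12, adjusted p = 0.00373). The others were the inflammatory caspases Casp1 (-0.43) and Casp4 (-0.57), and 0 of 10 anti-apoptotic genes were called by limma (2 at an unadjusted p under 0.05), with log2 fold changes of -0.78 to 0.20. Of 33 redox genes 8 were lower and 3 higher. The lower ones included Mt2 (metallothionein, -1.39), Hmox1 (heme oxygenase, -1.47), Txn1 (thioredoxin, -0.99) and Gpx3 (plasma glutathione peroxidase, -1.15), and the higher ones included the mitochondrial Txnrd2 (0.54) and Prdx3 (0.40). The call of Prdx3 was lost in 10 of 29 planned settings, among them the omission of T8, T9, TT1, TT2 or TT3, and that of Txnrd2 in 4. Cdkn1a, which encodes the cell cycle inhibitor p21, was lower in each TUDCA-TAC heart, at 9.00, 9.57, 9.52 and 9.56 against 10.61, 10.70 and 10.55 (log2 fold change -1.21, standard error 0.14, adjusted p = 0.00121). Mcm2, a gene of the replicative helicase, was higher, at 7.79 to 7.91 against 6.68 to 7.11 (log2 fold change 0.99, standard error 0.12, adjusted p = 0.00145), while the mitotic gene Cdk1 was not called (-0.39).

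As TUDCA is a bile acid, genes of bile acid receptors and of cholesterol and lipid synthesis were listed, and 17 of 35 were measured. Of these 3 were higher and 1 lower (23.5% called, against 16.4% of all genes). Srebf1, which encodes the main activator of fatty acid synthesis genes, was at 7.41, 6.88, 7.17 and 6.86 in TT1 to TT4 and at 6.25, 6.25 and 5.91 in T3, T8 and T9 (log2 fold change 0.94, standard error 0.20, adjusted p = 0.0104). The cholesterol synthesis genes Mvd (0.78) and Dhcr7 (0.63) were higher, and Apoe, which encodes a lipoprotein of macrophages among other cells, was lower by -0.79. Their pathway neighbours Hmgcs1 (0.10), Sqle (0.09) and Cyp51 (0.10) were not called. TS6, the TUDCA-Sham heart with low array background, stood 0.81 above the other TUDCA-Sham hearts in Srebf1 and 0.66 above them in Mvd. In Dhcr7 it stood 0.31 below them. The Veh-TAC values of Srebf1 lay near the lowest detected signal of those arrays, 6.00. With background level as a covariate in limma the calls of Srebf1 (adjusted p = 0.153), Mvd and Dhcr7 were lost.

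Circadian clock genes were among those called in banded hearts, and several had shifts of the same sign in sham hearts. The clock is a transcriptional loop in which ARNTL and CLOCK drive Per, Cry, Nr1d1 and Dbp, so these genes peak and fall with the time of day. Dbp, an output gene of the clock, was at 14.41, 13.81, 14.11 and 13.74 in TT1 to TT4 and at 13.11, 13.17 and 12.99 in T3, T8 and T9, and its sham means were 13.87 with TUDCA and 13.03 with vehicle. The log2 fold changes were 0.93 in banded hearts (adjusted p = 0.012) and 0.84 in sham hearts, where it was not called. Arntl, which runs opposite to Dbp, was lower by -1.42 in banded hearts (adjusted p = 0.013) and had -0.97 in sham hearts, where it was not called. Nr1d1 (1.07) and Cry2 (0.71) were higher in banded hearts, where 4 of 13 clock genes were called. The groups of Cry2 overlapped, and its call was lost in 14 of 29 planned settings (highest adjusted p = 0.362), while that of Nr1d1 was lost without T8 or T9 and that of Arntl without T8. In sham hearts 7 of the 13 had an unadjusted limma p under 0.05, against 204 of 8336 genes (2.45%), and 0 were called. The hour at which hearts were taken is not given in the sources used here, and its part in these differences was not tested.

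**Figure D5:**
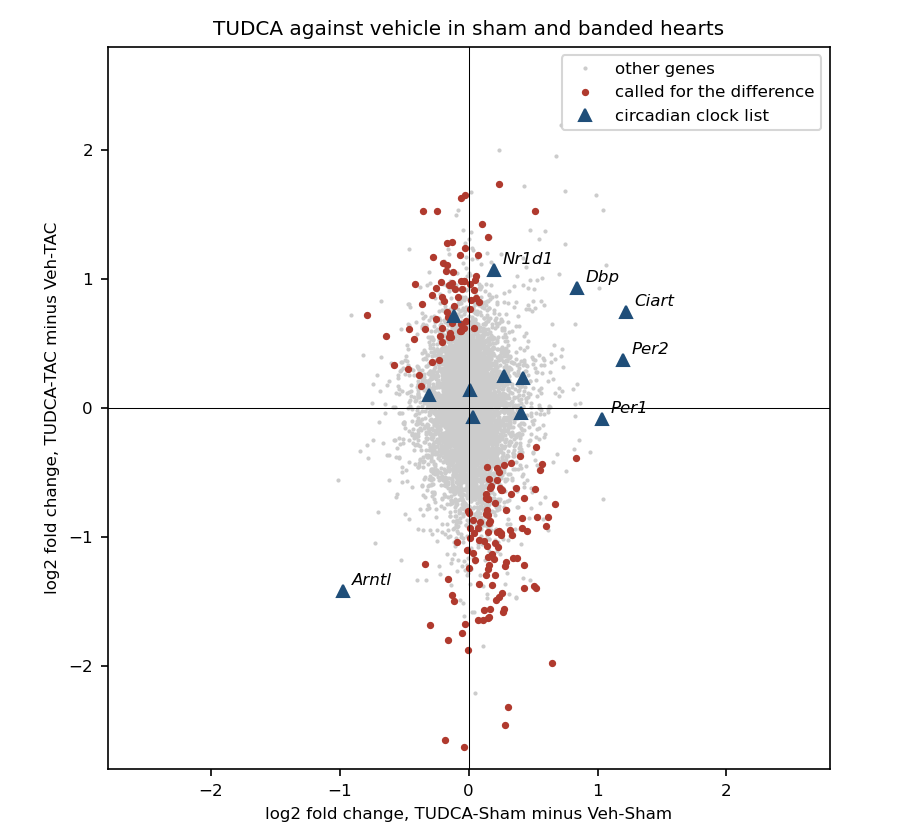
Log2 fold change with TUDCA of the 8336 genes in sham hearts (TUDCA-Sham minus Veh-Sham, horizontal) and in banded hearts (TUDCA-TAC minus Veh-TAC, vertical), on equal scales. Red points are the 178 genes called for the difference between the 2 effects, blue triangles the 13 clock genes, and the spread is wider along the vertical axis (SD 0.40) than along the horizontal one (SD 0.18).

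In sham hearts TUDCA and vehicle gave 0 called genes by limma, with a smallest adjusted p of 0.502, and 59 genes at an unadjusted p under 0.05 and over 1.5-fold against 967 in banded hearts. The 2 comparisons share no arrays. Over all genes the SD of the log2 fold change was 0.18 in sham and 0.40 in banded hearts, and the 2 sets had a Pearson correlation of -0.03 across genes, which are not independent replicates. The difference between the effects was tested directly and called in 178 genes (2.14%), 71 with a higher and 107 with a lower value in banded hearts. The largest negative differences were those of Sfrp2 (-2.75), Matn4 (-2.63), Nox4 (-2.62), Ptn (-2.60) and C1qtnf3 (-2.39). The largest positive ones were those of Sh3gl2 (1.88), which encodes the endocytic protein endophilin, Ano10 (1.77), an anoctamin gene, Ces1d (1.68), Ky (1.68), which encodes a protein of the muscle Z-disc, and Srrm4 (1.51), a splicing regulator gene. In Srrm4 part of the difference came from the sham hearts, where its log2 fold change was -0.79, and it was not detected on any Veh-TAC array (at least 1.28-fold higher in the TUDCA-TAC group). The adjusted p-values of these 10 genes lay between 0.0118 and 0.0494. The number called for the difference depended on single hearts. It lay between 8 (without T9) and 100 (without TT1) when any heart other than T3 and TT4 was left out, was 398 without T3 and 167 without TT4, and was 0 in limma with the background term of 2 levels.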

How the data were processed

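Total RNA of each heart was amplified, biotin-labelled and hybridized by the authors to Illumina MouseRef-8 v2 bead arrays, and GenomeStudio gave the values. The deposited raw table held the mean bead intensity of 25697 probes without background subtraction, and the authors deposited a detection p-value beside each intensity, set against the negative control beads of that array. A second table deposited by the authors held log2 values of 11732 probes, which equalled quantile-normalized log2 intensities of those probes to within 5e-07 and covered the probes detected on at least 8 arrays. The labels place each heart in its group, and they number replicates differently in titles and descriptions. Nothing states the layout of arrays on chips.

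The intensities were corrected by normexp in limma 3.58.1 (R 4.3.3). The negative controls were inferred through the detection p-values. An offset of 16 was added before quantile normalization across arrays, and log2 was taken. Probes with a detection p under 0.05 on at least 3 arrays were kept (13557), of which 11078 had a symbol, and the brightest probe of each symbol gave 8336 genes. Each tested gene was detected on at least 8 arrays, and probes outside the second table of the authors on at most 7. Without the filter of 3 arrays the same 8336 genes and 1369 calls were obtained. Genes detected only in the 7 banded hearts were therefore not tested. A model of the 4 groups over 13 arrays was fitted with lmFit and eBayes, with Benjamini-Hochberg adjustment across all genes. Fold changes of genes not detected on any array of a group are bounds against the lowest detected signal. They hold only as far as array background, which was higher in the Veh-TAC group, leaves that signal comparable. The number of hearts limits the precision of every value. The limma p-values set a group difference against a spread pooled over the hearts of all 4 groups and moderated across genes by eBayes.

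The genes named are those the article names, the 15 largest rises and falls among called genes without overlap, up to 3 higher and 3 lower called members of each list by smallest p, and the 5 largest differences of effects in each direction. Further members of the lists were named after their values were seen. The comparison, the lists and the rule were chosen with earlier results of these data known, so list counts are descriptions and carry no test. Of the article's genes, Eif2s1 was not among the measured genes. Promoters came from RefSeq (GRCm38.p6). The scripts were tested on simulated data. Alternatives were other background corrections, scalings, filters, probe rules, models, array covariates and the omission of each heart, and a t-test of the banded groups.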

Additional observations from a re-analysis of the deposited data

Results flagged for a closer look

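In the TUDCA-TAC group, 10 of the 145 named genes had 1 heart far from the other 3, judged by its gap to the nearest heart as a share of the range of the group, where chance gives about 1 in 20. TT1 lay apart in Acta1 (0.970 of the range), Nppb (0.933), Col1a2 (0.928), Ctss (0.908), Cdkn1a (0.906), Nr1d1 (0.888), Mfap5 (0.873) and Smad2 (0.855), being the highest heart in Nr1d1 and the lowest in the other 7. TT4 lay apart in Col16a1 (0.883), where it was the highest, and in Ndufa12 (0.874), where it was the lowest. TT1 also had the lowest array background of the 13 hearts, and its part in these values was not tested.

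The effect of TUDCA differed between banded and sham hearts in 178 genes by limma's test of the difference. The log2 differences were -2.75 in Sfrp2, -2.63 in Matn4, -2.62 in Nox4, -2.60 in Ptn and -2.39 in C1qtnf3, and 1.88 in Sh3gl2, 1.77 in Ano10, 1.68 in Ces1d, 1.68 in Ky and 1.51 in Srrm4. In 171 of the 178 genes the banded comparison was called too.

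Probes without a gene symbol were left out of the comparison of genes. Probes outside the deposited normalized table, which gave no tested gene, were detected on at most 7 arrays. Of the 2479 kept probes without a symbol 168 (6.78%) were called in the banded comparison in a fit of all kept probes, against 13% of the probes with a symbol.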

How the results depend on the processing

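Against 1369 called genes (681 higher, 688 lower) and 178 called for the difference between the effects in banded and sham hearts, these settings moved a count by over 1.5 times. Scaling to a common median gave 900, of which 358 were higher and 542 lower, so that the share of higher calls was 39.8% and not 49.7%. The 7 banded arrays fitted alone gave 505 (205 higher, 300 lower). Array weights gave 2128 (1173 higher) and 892 for the difference. The background level of each array as a covariate gave 140 (60 higher, 80 lower) and 39 for the difference. A term for background of 2 levels, added after the data were seen, gave 0 (0 higher, 0 lower) and 0 for the difference. Without TT1 and TT4, the hearts apart on the second principal component, 421 genes were lower and 113 differed between the effects. The difference was called in 279 genes without background correction, in 277 with the deposited normalized table, in 99 with each probe by itself and in 312 with signal over background as a covariate. A t-test is among the tests that the article lists for group means, without naming one for the arrays. At p under 0.05 and over 1.5-fold the t-test called 801 genes, where limma at the same limits had 967. The t-test called 1 gene after Benjamini-Hochberg adjustment. The cause of these shifts was not tested.

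With the description number as a replicate block, 804 genes were called (385 higher, 419 lower) and 89 for the difference. The numbers were not taken to pair the hearts, since deviations from the group means correlated by 0.44, -0.34 and 0.25 over the 3 numbers shared by both banded groups. Leaving out 1 heart at a time gave 417 to 1330 called genes, 190 to 705 higher, 227 to 700 lower and 8 to 398 for the difference. In sham hearts limma called 0 genes under each setting run. Of the 133 called named genes 42 kept the call in all 29 planned settings, and 470 of 3842 pairs of gene and setting lost the call. No sign changed where a named gene was called in the main fit or in the setting. Signs of genes called in neither were not counted. Lost calls are given above for some genes only. Others lost were Col5a1 (9 settings), Casp1 (8), Dhcr7 (8) and Txndc5 (7).

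The design has 3 and 4 hearts, and array background was confounded with TUDCA in the banded hearts apart from TS6. Probes near the upper limit of intensity or not detected give only bounds.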
